A study of Sus scrofa with 6 samples.

Results

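The distal ends of the acrocentric chromosomes are the last 5 Mb, at the high-coordinate side, of pig chromosomes 13, 14, 15, 16, 17 and 18. Fragments of methylated DNA were assigned by their midpoint to 1 kb windows, and the windows starting in these last 5 Mb were taken, with each chromosome's length set by the largest fragment end in the 6 libraries. This gave 5000 windows for each of the 6 ends, 30000 windows of the 2262470 on the 19 placed chromosomes. The tissue was longissimus dorsi muscle, the long muscle of the back, from female Jinhua pigs, a Chinese breed. The middle-aged group (MA) comprised 3 libraries from pigs aged 7 years and the Young group 3 libraries from pigs aged 0.5 years. No treatment, transgene or induced allele is given for either group, and genomic DNA of the whole muscle, with all its cell types, entered each library. DNA was sheared and immunoprecipitated with an antibody against 5-methylcytosine (MeDIP), and the recovered fragments were sequenced in pairs, so the number of fragments over a window rises both with its methylation and with its density of CpG sites. The 6 libraries held 34801285 to 44341673 fragments.

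An acrocentric chromosome carries its centromere close to one end, so that nearly all of its genes lie on a single long arm. In the pig, chromosomes 13 to 18 have this shape, whereas chromosomes 1 to 12 and X have a second arm. The centromere of an acrocentric chromosome is flanked by satellite repeats, while the opposite, distal end carries the subtelomere, the DNA next to the telomere. Subtelomeres of mammals are rich in genes and CpG sites, their CpG sites are commonly methylated, and their methylation has been studied in relation to telomere length and ageing.

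MA 3 and, less strongly, Young 1, a library of each age, stood apart from the other 4 libraries at these ends before any comparison of ages. Of the 30000 windows, 20737 had at least 10 fragments per library on average. Over these the correlation of log2 levels averaged 0.84 for the 6 pairs of libraries within an age and 0.86 for the 9 pairs between ages. The r was 0.88 between MA 3 and Young 1 and 0.69 between MA 3 and Young 3, across windows that share neighbours and base composition. Young 1 lay in between, with an r of 0.84 to 0.88 to every other library. The other 4 libraries gave 0.92 to 0.95 among themselves. MA 3 was the lowest of the 6 libraries in 30.74% of these windows and in 16.96% of all 956310 windows tested. It was also the highest in 20.49% of these windows, against 26.24% of all windows. Young 1 was the lowest in 12.98% of these windows, against 11.38% of all windows. The counts, shares and differences between the ages below are therefore also given without these 2 libraries. Per the study's methods, the 3 libraries of each age came from 3 individual pigs kept in the same environment.

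The distal ends carried more MeDIP fragments than the rest of their chromosomes in every library. Fragments were counted per 1 kb window and scaled to the mean library total, on which scale an even spread over the placed chromosomes would give 17.5 fragments per window. The mean window of the distal ends held 47.1, 46.3 and 40.1 scaled fragments in MA 1, MA 2 and MA 3. In Young 1, Young 2 and Young 3 it held 41.8, 46.9 and 47.5. The interior of the same chromosomes, 564431 windows between the 2 ends, held 14.2 to 15.1 scaled fragments per window across the libraries. The level at the distal ends was thus 3.09 times that of the interior, with a range of 2.65 to 3.35 over the libraries (6 of 6 above 1, exact two-sided sign-flip permutation test over 6 libraries, p = 0.031, the smallest this design can give, adjusted p = 0.031 over the 3 regions compared).

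Pooled over the 6 chromosomes, the distal ends also exceeded the opposite, centromere-side ends, although chromosome 18 on its own did not. The first 5 Mb of chromosomes 13 to 18 held 16.8 to 17.5 scaled fragments per window, near the even spread. The distal ends stood 2.60 times higher, with a range of 2.38 to 2.73 over the libraries (6 of 6 above 1, exact permutation test, adjusted p = 0.031). With chromosome 18 left out, a setting chosen after the data were seen, they stood 3.92 times higher. Against the ends of chromosomes 1 to 12, which are all distal ends of an arm, the excess was small. Those 24 ends held 34.1 to 41.6 scaled fragments per window, and the acrocentric distal ends were 1.16 times higher, with a range of 1.14 to 1.18 (6 of 6 above 1, exact permutation test, adjusted p = 0.031). The sign-flip tests of regions measure agreement among the 6 libraries and leave out the variation among chromosome ends. Single ends of chromosomes 1 to 12 ran from 14.9 to 60.2, and the acrocentric distal ends from 38.2 to 54.2. MA 3 and Young 1 were the 2 lowest libraries at the ends of chromosomes 1 to 12 as well. In the interior of chromosomes 13 to 18 they were the 2 highest.

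**Figure D1:**
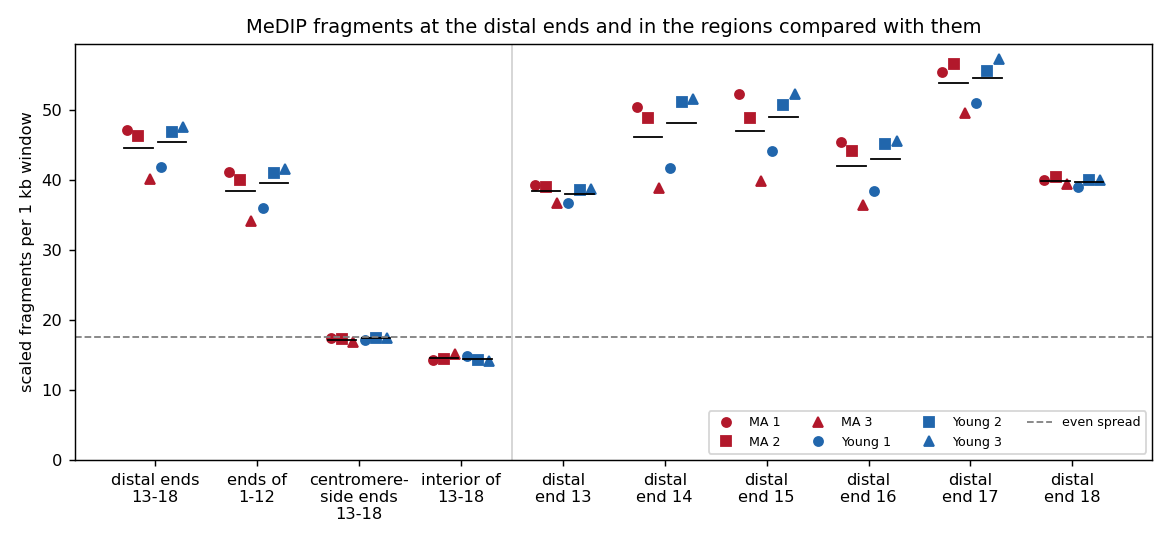
Scaled fragments per 1 kb window in each of the 6 libraries (red, MA; blue, Young; bars, group means) for 4 regions and, on the right, for each distal end; the dashed line is the even spread of 17.5. The distal ends sit between 40.1 and 47.5, above the centromere-side ends and the interior, and MA 3 and Young 1 are the lowest of the distal-end points.

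The 6 distal ends were not equally covered. The end of chromosome 17 was the highest, with 54.2 ± 3.18 scaled fragments per window (SD, n = 6 libraries), and ranked 2 among the 38 chromosome ends. The ends of chromosomes 15 and 14 followed with 48.0 ± 5.00 and 47.1 ± 5.43, at ranks 5 and 6, a difference within the spread of their libraries. Chromosome 16 had 42.5 ± 4.03, chromosome 18 had 39.8 ± 0.532 and chromosome 13 had 38.2 ± 1.15, at ranks 16, 18 and 21. The libraries were close to each other at chromosomes 18 and 13, with coefficients of variation of 1.34% and 3.02%, and far apart at chromosomes 14 and 15, with 11.5% and 10.4%.

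Each end exceeded the interior of its own chromosome in 6 of 6 libraries. The ratio was highest on chromosome 15, at 4.05, where the interior held only 11.8 scaled fragments per window. Chromosomes 13, 17 and 14 had ratios of 3.17, 3.17 and 3.01. Chromosome 16 had a ratio of 2.495, and chromosome 18, whose interior was the best covered of the 6 at 19.6 scaled fragments per window, had 2.03.

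Chromosome 18 departed from the others at its centromere side. The low-coordinate ends of chromosomes 15, 17, 13 and 16 were the 4 lowest of all 38 chromosome ends, with 7.58, 8.22, 11.5 and 12.3 scaled fragments per window, and that of chromosome 14 ranked 33 with 18.9. The low-coordinate end of chromosome 18 held 45.0, at rank 8. Its distal end was therefore lower than its centromere-side end, with a ratio of 0.887 (range 0.842 to 0.992, below 1 in 6 of 6 libraries). On the other chromosomes the corresponding ratio ranged from 2.48 on chromosome 14 to 6.59 on chromosome 17.

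**Figure D2:**
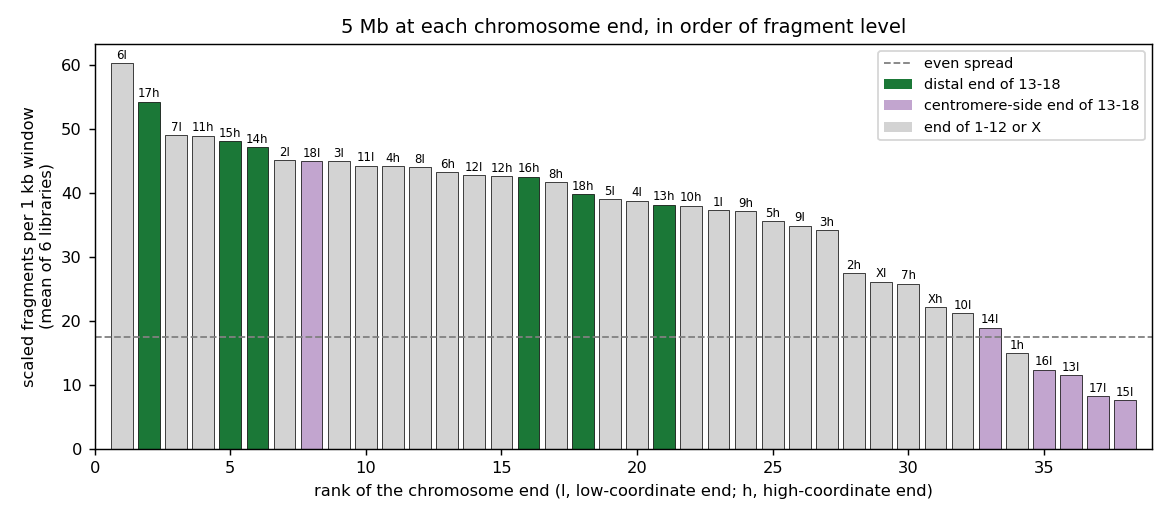
The 38 chromosome ends of 5 Mb ordered by scaled fragments per 1 kb window, mean of 6 libraries (green, distal ends of chromosomes 13 to 18; purple, their centromere-side ends; grey, ends of the other chromosomes). The green bars lie between 38.2 and 54.2, and the purple bars at the right end lie below the even spread except those of chromosomes 14 and 18.

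Pooled over the 6 ends, the higher level came from many windows and not from a few. The median window of the distal ends held 29.1 scaled fragments against 6.51 in the interior. By end, the median was lowest on chromosome 15, at 18.5, near the even spread of 17.5, although the mean of that end was among the higher ones. At the other ends the median ran from 26.1 on chromosome 18 to 40.4 on chromosome 17. Windows with at least 4 times the even spread made up 23.3% of the distal windows and 2.51% of the interior windows. The share of windows without a fragment in any library was 10.6% at the distal ends and 10.4% in the interior. Windows at 4 times the even spread or more were most frequent at chromosomes 17 and 14, with 28.5% and 28.4%, and least frequent at chromosome 13, with 17.4%. They formed uninterrupted stretches of up to 20 windows on chromosome 15 and 18 windows on chromosome 17. Windows without any fragment also clustered, and the longest such stretch covered 134 windows of chromosome 17, with its outer edge 3846 kb from the distal end.

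Along each end the level rose and fell over 100 kb bins. On chromosome 15 the bins ran from 0.157 scaled fragments per kb, 3600 to 3700 kb from the end, to 266 at 2200 to 2300 kb. On chromosome 14 they ran from 0.201 at 4500 to 4600 kb, where 81 of the 1 kb windows were empty, to 85.1 at 2700 to 2800 kb. The lowest ratio of highest to lowest bin was 24.5, on chromosome 16, whose bins ran from 3.53 to 86.6. Despite these gaps, 37 to 46 of the 50 bins of each end lay above the mean of its own interior. The highest bin of chromosomes 13 and 18 lay 300 to 400 kb from the end, at 84.3 and 87.4, and that of chromosome 17 lay 200 to 300 kb from it, at 143.

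**Figure D3:**
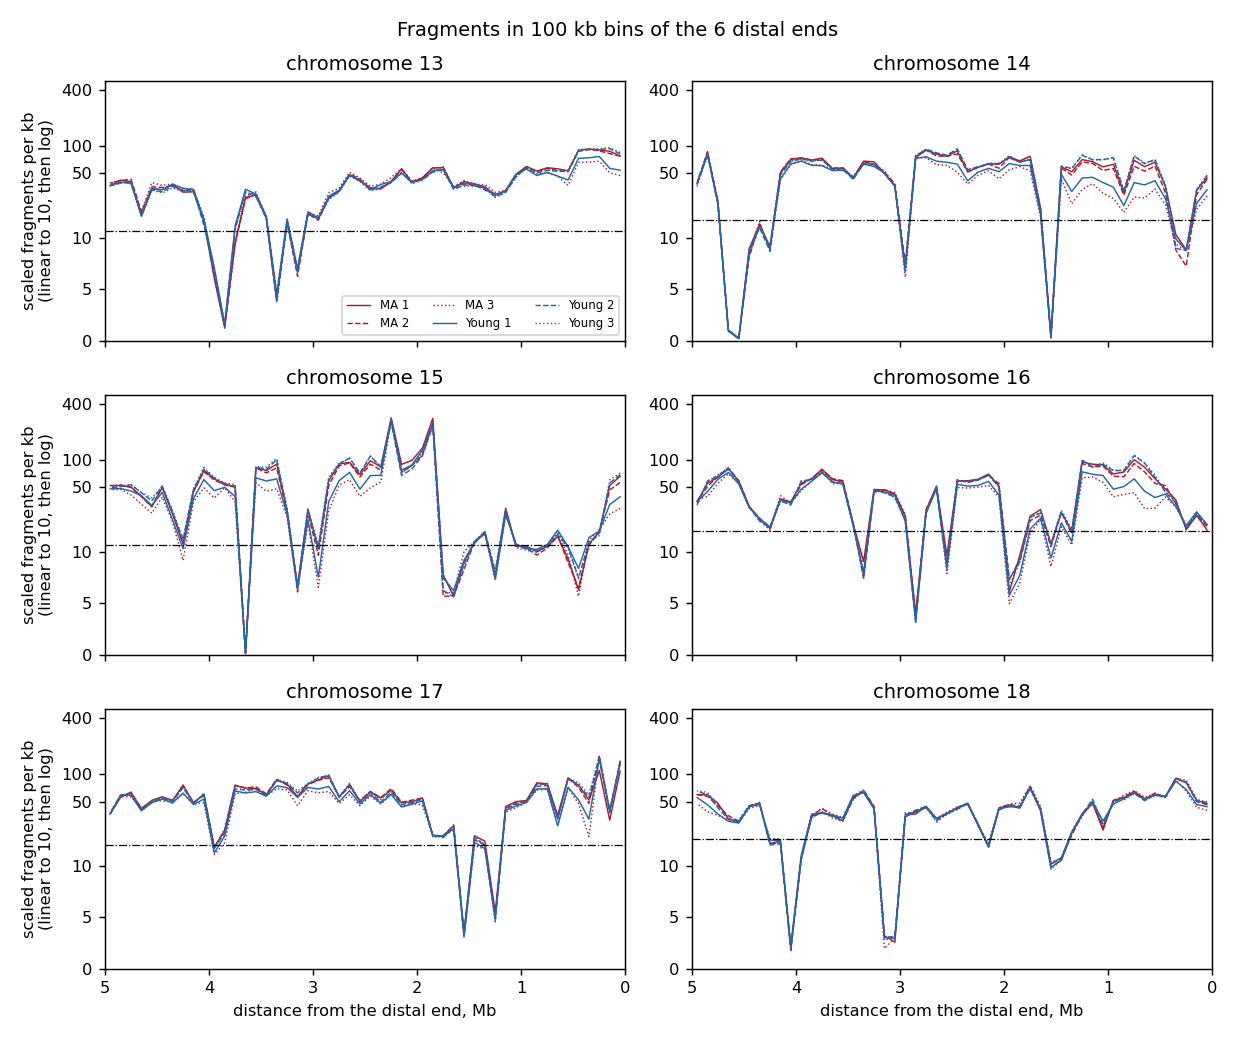
Scaled fragments per kb in 100 kb bins against the distance from the distal end in Mb, one line per library (red, MA; blue, Young); the vertical axis is linear to 10 and logarithmic above, and the dash-dot line is the mean of the chromosome's interior. The 6 lines follow the same peaks and gaps, and MA 3 and Young 1 lie below the other 4 in every bin from 400 to 1500 kb of chromosomes 14 and 16.

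The level did not rise toward the telomere at every end. The outermost 1 Mb was compared with the innermost 1 Mb of the same 5 Mb, and p-values were adjusted over the 6 ends. On chromosome 13 the outermost Mb held 66.1 scaled fragments per window and the innermost 32.4, a ratio of 2.03 (range 1.58 to 2.34, 6 of 6 above 1, exact sign-flip permutation test, adjusted p = 0.04688). The ratio was 1.72 on chromosome 18 (range 1.64 to 1.86) and 1.40 on chromosome 17 (range 1.31 to 1.48), in 6 of 6 libraries each and with the same adjusted p = 0.04688 from the exact permutation test. Chromosome 15 ran the other way, with 19.6 in the outermost and 42.2 in the innermost Mb and a ratio of 0.463 (range 0.431 to 0.489, 0 of 6 above 1, exact permutation test, adjusted p = 0.04688).

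Chromosomes 14 and 16 gave no call. The ratio was 1.22 on chromosome 14 (4 of 6 above 1, exact permutation test, adjusted p = 0.225) and 1.10 on chromosome 16 (4 of 6 above 1, exact permutation test, adjusted p = 0.3125). At both ends the libraries below 1 were MA 3 and Young 1, at 0.788 and 0.993 on chromosome 14 and at 0.793 and 0.937 on chromosome 16. Without these 2 libraries the log2 ratios were 0.52 on chromosome 14 and 0.31 on chromosome 16, against 0.29 and 0.13 with all 6. The windows used and the way they were averaged changed the result at chromosomes 17 and 14. On chromosome 17 the ratio was 0.930 with the median window in place of the mean, and 1.11 with windows of a mean count over 1000 left out. On chromosome 14 the median window gave 19.1, and leaving out windows without fragments gave 0.809, below 1. In its innermost Mb 41.3% of the windows held no fragment and the median window held 1.34 scaled fragments.

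A few windows carried a large share of the fragments at chromosomes 15 and 17. Of the windows with a mean count over 1000, 11 lay on chromosome 15, from chr15:132306001 to chr15:132686000, and held 9.79% of the fragments of that end. The other 6 lay on chromosome 17, from chr17:64109001 to chr17:64330000, and held 5.70%. These and all other positions are those of the Sscrofa9.2 assembly. The densest window of all, chr15:132312001-132313000, held 6897, 6788 and 6119 scaled fragments in MA 1, MA 2 and MA 3, and 6005, 5564 and 5497 in Young 1, Young 2 and Young 3. All 3 MA libraries lay above the 3 Young libraries there, as in 7.51% of all 956310 windows tested, and the mean was 351 times the even spread. The ages overlapped at most of the other windows with a mean count over 1000. At chr17:64109001-64110000 MA 1 held 2889 scaled fragments and the other 5 libraries 4768 to 5857, so a single library was low and the ages overlapped.

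At the other 4 ends no window came near these values. The densest windows were chr14:147462001-147463000 with a mean of 289, chr13:142441001-142442000 with 284, chr18:53948001-53949000 with 276 and chr16:75296001-75297000 with 274 scaled fragments. They lay 1048, 2794, 361 and 2139 kb from their chromosome ends. At the window of chromosome 16 MA 3 held 146 and the other libraries 251 to 347. Whether repeated DNA collapsed in the assembly adds to the densest windows was not tested.

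The study surveyed how muscle DNA methylation differs between middle-aged and young pigs across the genome, and the same contrast was made here at the distal ends. The level of the distal ends did not differ between the ages beyond the spread among libraries. The mean was 44.5 ± 3.83 scaled fragments per window in MA (SD, n = 3) and 45.4 ± 3.13 in Young (n = 3), and the groups overlapped. The log2 difference, MA minus Young, was -0.028 (exact two-sided permutation test of 3 against 3 libraries, p = 0.6). Relative to the interior of the same chromosomes, the ends stood at 3.04 in MA and 3.14 in Young, a log2 difference between the 2 of -0.049 (exact permutation test, p = 0.5). Without MA 3 and Young 1 this difference was -0.032, with 2 libraries against 2. The groups then did not overlap, with ratios of 3.294 and 3.209 in MA 1 and MA 2 and of 3.295 and 3.353 in Young 2 and Young 3. With the median window and all 6 libraries the difference was 0.015. With 3 libraries against 3 this test cannot give a p below 0.1.

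With all 6 libraries, none of the 6 ends separated the ages either. The MA mean was below the Young mean at 4 ends and above it at 2. On chromosome 14 the means were 46.0 ± 6.29 in MA and 48.1 ± 5.57 in Young, and on chromosome 15 they were 46.98 ± 6.42 and 49.03 ± 4.27. These were the widest differences, with log2 values of -0.066 and -0.067. On chromosome 16 the log2 difference was -0.038 and on chromosome 17 it was -0.020. Chromosomes 13 and 18 had log2 differences of 0.014 and 0.0078. The groups overlapped at every end, with an adjusted p = 0.7 from the exact permutation test over the 6 ends.

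The sign of the pooled difference depended on single libraries and on the scaling. Scaled to total bases in place of total fragments, the log2 difference over all ends was 0.026. Without MA 3 the log2 difference over all ends was 0.043 and without Young 3 it was 0.0048, and leaving out any other single library kept it below 0, down to -0.085 without Young 1. Without MA 3 it was above 0 at each of the 6 ends, from 0.018 on chromosome 18 to 0.061 on chromosome 16. Without both MA 3 and Young 1 it was -0.013, and it was positive at chromosomes 13 and 18 and negative at the other 4 ends, as with all 6 libraries. The remaining libraries of the ages then lay apart on chromosome 13, with MA higher, and on chromosome 14, with MA lower. They overlapped elsewhere.

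MA 3 and Young 1 were the 2 lowest libraries in the outermost Mb of each of the 6 ends, by a margin that differed between ends. In the outermost Mb of chromosome 14, MA 3 held 22.5 and Young 1 held 28.0 scaled fragments per window, and the other 4 libraries held 37.8 to 45.7. In the outermost Mb of chromosome 16 they held 32.0 and 38.6, and the others 50.0 to 57.0. At chromosome 18 the 6 libraries stayed between 57.1 and 60.9 in the same interval, with the same pair lowest. The gap differed between levels. In windows with a mean of 10 to 20 scaled fragments MA 3 and Young 1 were the 2 highest, at 15.2 and 15.1, and the others held 14.5 to 14.9. In windows of 40 to 80 they held 52.0 and 53.8, and the others 59.2 to 61.4. In windows of 80 to 160 they held 91.7 and 97.8, and the others 114 to 119. Above 160 they held 244 and 253, and the others 267 to 279. The totals of MA 3 and Young 1, 38715005 and 43411846 fragments, lay inside the range of the other 4. Their shares of intervals that repeat an earlier one, over the whole library, were the 2 lowest, at 1.22% and 1.28%, against 1.43% to 1.59% in the other 4. Among the fragments of the distal ends alone, these shares were 0.655% and 0.656%, inside the 0.551% to 0.736% of the other 4. In the study's own read summary, the non-duplicate share was lowest for MA replicate 3 and highest for Young replicate 1. Whether its replicate numbers are those of the deposited libraries was not tested. Its Young replicate 1 had the fewest clean reads of the Young replicates, whereas the deposited Young 1 held the most fragments of the Young libraries.

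**Figure D4:**
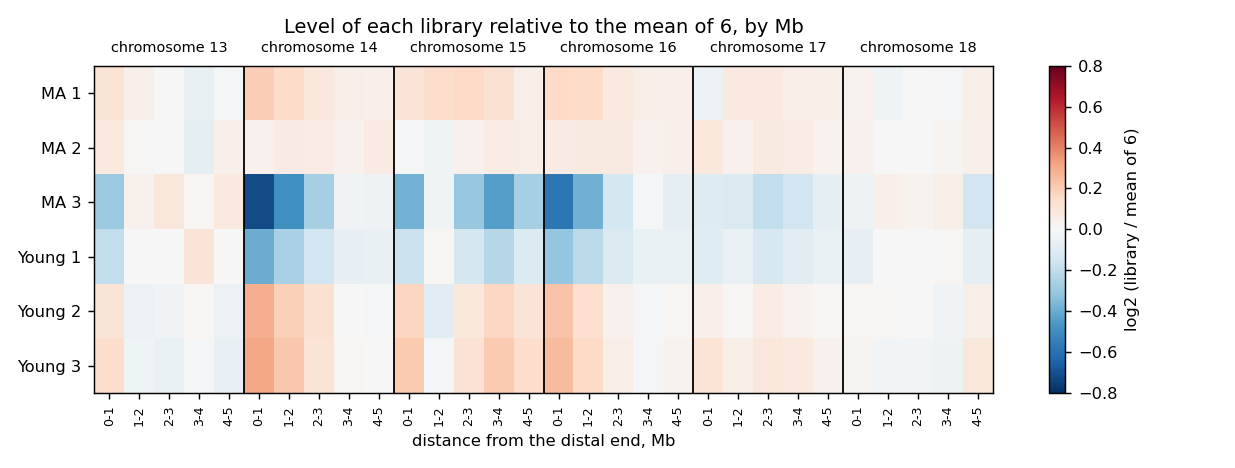
The log2 ratio of each library to the mean of the 6 libraries in each of the 30 intervals of 1 Mb, with the distance from the distal end on the horizontal axis and libraries in rows; blue is below and red above the mean. MA 3 and Young 1 are blue in the outermost Mb of chromosomes 13, 14, 15 and 16, and no column separates the MA rows from the Young rows except 1 to 2 Mb of chromosome 13.

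Of the 30 intervals of 1 Mb, 1 had groups that did not overlap, with MA higher. Over all 2253 such intervals of the placed chromosomes, 6.21% had MA wholly higher and 5.68% wholly lower. The one of the distal ends lay 1 to 2 Mb from the end of chromosome 13, where MA held 42.1, 41.3 and 41.9 and Young held 41.0, 39.7 and 40.1 scaled fragments per window. In 100 kb bins, MA lay wholly above Young in 26 of the 300 bins and wholly below in 9. Over all 22617 bins of the placed chromosomes the groups did not overlap in 7.29% with MA higher and in 9.75% with MA lower, and 35 of 300, or 11.7%, stood against 17.04% of the whole set. Without MA 3 and Young 1, MA lay wholly above in 10 and wholly below in 9 of the 30 intervals of 1 Mb, against 23.4% and 36.7% of all intervals. In the 100 kb bins the counts were then 84 and 78 of 300, against 21.8% and 28.7% of all bins. Groups of 2 libraries are expected to be apart more often than groups of 3. Among the 9 bins with MA lower and all 6 libraries used was one 3700 to 3800 kb from the end of chromosome 13, chosen after its values were seen. It held 9.33 to 9.55 in MA and 12.3 to 13.5 in Young. Its neighbour at 3600 to 3700 kb was also among them, with 26.52 to 28.15 in MA and 30.66 to 33.7 in Young.

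In 1 kb windows the shares of age differences at the distal ends were close to those of all windows. Which share was larger depended on the libraries used. Of the 20737 member windows tested, 1369 (6.60%) had every MA library above every Young library and 851 (4.10%) the reverse, against 7.51% and 5.83% of all 956310 windows. Without MA 3 and Young 1 the counts were 4117 (19.9%) and 4202 (20.3%), against 20% and 18.5% of all windows. By end, the share with MA above ran from 4.71% on chromosome 15 to 9.21% on chromosome 13. Chromosome 15 was the only one of the 6 ends with more windows below than above with all 6 libraries, 164 against 140. Without MA 3 and Young 1 the share with MA above ran from 16.0% on chromosome 15 to 23.6% on chromosome 13, and chromosome 14 joined chromosome 15 in having more windows below than above, with 809 against 620 and 831 against 477. The median log2 difference, MA minus Young, was -0.017 over the member windows and 0.018 over all windows with all 6 libraries. The value over the member windows turned to 0.050 without MA 3, against 0.0074 over all windows, and to 0.0044 without both MA 3 and Young 1, against 0.016.

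At an adjusted p below 0.01 (limma, Benjamini-Hochberg over all windows), 0 member windows were called, where 0.00178% of all windows were called higher and 0.000837% lower in MA. At an unadjusted p below 0.05 limma gave 1123 member windows, or 5.42%, against 7.31% of all windows. Without Young 1 the count was 1873, or 9.03%, against 7.83% of all windows, and without both MA 3 and Young 1 it was 2325, or 11.2%, against 9.03%. The share was 7.57%, 6.18% and 6.01% without MA 1, MA 2 or MA 3 in turn, below the 7.75%, 6.93% and 7.43% of all windows. It was 3.68% without Young 2 and 3.71% without Young 3, below 4.98% and 5.46%. At an adjusted p below 0.05 there was 1 member window, lower in MA, against 0.0123% of all windows called higher and 0.00941% called lower. That window was chr13:141627001-141628000, 3608 kb from the distal end. It held 14.3, 14.4 and 9.21 scaled fragments in MA 1, MA 2 and MA 3, and 49.3, 43.8 and 46.7 in Young 1, Young 2 and Young 3. The 2 groups lay far apart, with a log2 difference of -1.83 (SE 0.24, limma, adjusted p = 0.04227). Without MA 3 the limma adjusted p was 0.016, and without MA 1, MA 2, Young 1, Young 2 or Young 3 in turn it was 0.083, 0.072, 0.16, 0.35 and 0.35, above the threshold of 0.05. The call was also lost with trimmed-mean (TMM) factors, with a pseudocount of 0.5 and with the replicate block (limma adjusted p = 0.063, 0.052 and 0.27), and without both MA 3 and Young 1 the adjusted p was 0.0094. The number of member windows called at 0.05 was 2 without MA 2, both lower in MA, and 5 without MA 3, of which 2 were higher and 3 lower. Over all windows these settings called 0.00345% higher and 0.0112% lower without MA 2, and 0.0349% higher and 0.06% lower without MA 3. Without any one of the other 4 libraries no member window was called at 0.05. The listed region nearest to it on the centromere side, looked up after its values were seen, was chr13:141602062-141602178, in an intron of DYRK1A, a protein kinase gene.

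Without MA 3 and Young 1, a setting chosen after these libraries were seen to stand apart, limma called 11 member windows at an adjusted p below 0.01, of which 4 were higher and 7 lower in MA, against 0.0687% of all windows called higher and 0.068% called lower. At 0.05 it called 72 of the 20737, with 24 higher and 48 lower, against 0.18% and 0.214% of all windows. Over all windows that setting called 1307 at 0.01 in place of 25.

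Some windows of the ends had no fragment in 1 or more of the libraries. Of the 20737 windows tested, 31 (0.150%) had no fragment in at least 1 library, against 0.111% of all windows. Most of them lacked MA 3 alone. The 3 windows given here were chosen after their values were seen. At chr14:147973001-147974000 MA 3 had 0, Young 1 had 11.9 and the other 4 libraries 32.0 to 62.6 scaled fragments. A stretch on chromosome 16 was covered in MA 2 alone: chr16:75370001-75371000 held 102 scaled fragments in MA 2 and none in the other 5. On chromosome 18, chr18:50589001-50590000 had no fragment in MA 1 and Young 1, and 38.6 to 114 in the other 4. A 0 in these libraries allows a true count of up to 3 fragments before scaling, a limit that covers counting error only. Which libraries lacked a window did not follow age in these examples.

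The study's list of differentially methylated regions (DMRs) was then read for the distal ends. The study chose this list on these same samples, and the copy used here holds its beginning, with promoter, exon and part of the intron entries, so its counts are descriptions and its directions are not independent evidence. Of the 1838 distinct DMRs in the copy, 80 lay in the distal ends, with a median length of 109 bp, and 76 of them touched an intron. Mean depth over each was recomputed from the fragments and scaled to the library totals. By this measure 46 were lower and 34 higher in MA, and the groups did not overlap at 80 of 80, as follows from the way the list was made. Over all 1838 DMRs of the copy, 63% were lower and 37% higher in MA, and the groups did not overlap at 99.8%. Without MA 3 and Young 1 the direction was the same at 80 of 80. The fewest fragments behind a value were 1 and the most 153. Both directions occurred at 5 ends, and at chromosome 15 all 11 were lower in MA. The 80 DMRs were paired with 49 genes, and the 36 found by name in the annotation of the later assembly Sscrofa11.1 were all on the same chromosome there.

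Chromosome 13 held 20 of these DMRs, 8 lower and 12 higher in MA. The largest increase was in an intron of DSCR3, which encodes a subunit of an endosomal retrieval complex. At chr13:141225792-141225929 depth was 7.94, 15.1 and 13.4 in MA 1, MA 2 and MA 3, and 3.21, 1.23 and 1.34 in Young 1, Young 2 and Young 3, a ratio of 6.30 resting on 2 to 19 fragments per library. The largest decrease was in DOPEY2, a gene whose human counterpart lies in the Down syndrome region. Over chr13:140343851-140343901 depth was 8.10 to 15.9 in MA and 25.5 to 30.9 in Young. DOPEY2 had 4 listed DMRs, 2 in each direction, and BACE2, which encodes an aspartic protease able to cleave the amyloid precursor protein, had 4, of which 3 were higher in MA.

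Chromosome 14 held 10, 6 lower and 4 higher. MGMT, which encodes the enzyme that removes methyl groups from the O6 position of guanine, had 3 listed DMRs, 1 lower and 2 higher. The highest ratio of this end was at its intronic DMR chr14:145759387-145759451, with 15.9 to 19.4 in MA and 8.23 to 10.9 in Young. EBF3, a transcription factor gene of the early B-cell factor family, had 5, with log2 differences from -0.71 to 0.63. The largest decrease was in C10orf92, at chr14:147730908-147731028, with 18.1 to 27.0 in MA and 41.1 to 45.3 in Young.

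All 11 DMRs of chromosome 15 were lower in MA, with a median log2 difference of -1.35. The largest decrease was in an intron of RAMP1, the partner protein that turns the calcitonin receptor-like receptor into a receptor for calcitonin gene-related peptide. At chr15:129973454-129973532 depth was 1.12, 3.16 and 1.02 in MA 1, MA 2 and MA 3, against 13.4, 8.74 and 11.3 in Young 1, Young 2 and Young 3, 6.32 times higher in Young. It rested on 1 to 17 fragments per library. The smallest decrease was in NDUFA10, a subunit gene of mitochondrial complex I. There, at chr15:131202923-131203020, depth was 81.4 to 85.7 in MA and 95.9 to 101 in Young. MA 3 was the lowest library at RAMP1, while at NDUFA10 MA 1 was.

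Chromosome 16 held 20, 11 lower and 9 higher. POLS, which encodes a non-canonical poly(A) polymerase, had the largest increase, at chr16:72604655-72604722, with 52.0 to 65.4 in MA and 23.7 to 32.3 in Young. The largest decrease was at chr16:76872239-76872334, listed with ENSSSCG00000017115 and with SLC6A19, a transporter gene for neutral amino acids, where MA held 5.01 to 6.24 and Young 12.6 to 15.5. ENSSSCG00000017115 had 6 listed DMRs, 4 lower and 2 higher, and 5 of them were also listed with MRPL36, a mitochondrial ribosomal protein gene. NSUN2, which encodes an RNA cytosine methyltransferase, had 3, all lower in MA. ADAMTS16, a secreted metalloprotease gene, had 5, of which 4 were higher, and ANKRD33B had 3, of which 1 was higher.

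Chromosome 17 held 12, 7 lower and 5 higher. VAPB, which encodes a membrane protein of the endoplasmic reticulum involved in contacts with other organelles, had 4 DMRs, all lower in MA. The one of these with the largest decrease of the end was chr17:61220808-61220890, with 12.3 to 15.7 in MA and 26.9 to 32.8 in Young. The largest increase was at chr17:59492770-59492861 in ENSSSCG00000007493, with 12.2 to 13.7 in MA and 6.64 to 7.86 in Young. ENSSSCG00000007535, near the dense windows of this end, had 4, with 2 in each direction. Chromosome 18 held 7, 3 lower and 4 higher. AEBP1, a gene of an extracellular matrix protein, had the largest increase, at chr18:49597776-49597875, with 12.9 to 14.04 in MA and 4.22 to 6.68 in Young. HECW1, a ubiquitin ligase gene, had the largest decrease, at chr18:50140064-50140109, with 5.09 to 7.22 in MA and 11.2 to 16.4 in Young.

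**Figure D5:**
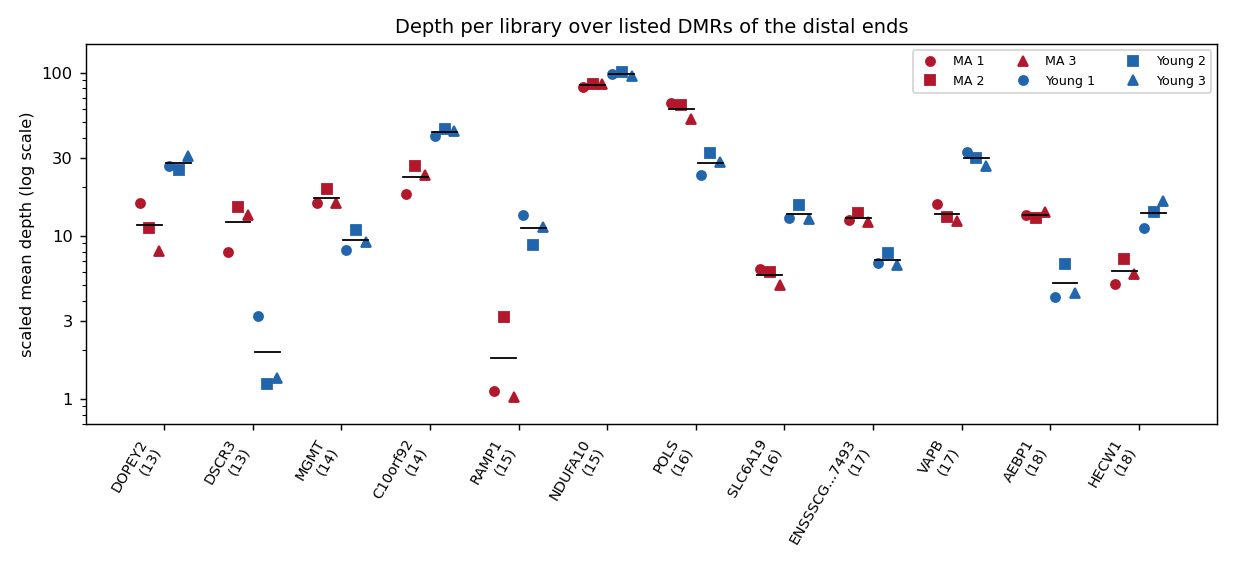
Scaled mean depth, on a log axis, over 12 listed DMRs in each library (red, MA; blue, Young; bars, group means); genes are followed by their chromosome. The 2 groups are apart at each because the list was chosen on these samples, and the widest gaps, at DSCR3 and RAMP1, rest on the lowest depths.

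Fragment length and repeated intervals were compared between the ends and the interior as technical measures. The mean interval was 0.655 bp shorter in the distal ends than in the interior, 260 against 261 bp, shorter in 4 of 6 libraries and longer in 2 (exact sign-flip permutation test, p = 0.2812). The median length differed the other way, by 1.5 bp on average (exact permutation test, p = 0.125). Intervals identical to an earlier one made up 0.650% of the fragments at the distal ends and 1.63% in the interior. Base composition and CpG density of the windows were not measured here, and their part in the level of the ends was not tested.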

How the data were processed

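Genomic DNA of 3 MA and 3 Young longissimus dorsi muscles was immunoprecipitated for 5-methylcytosine and sequenced in pairs. Per the study's methods, the authors removed low-quality reads and aligned the rest to Sscrofa9.2 with SOAP2. They treated reads of a library at the same location as a single read. The deposited files hold the chromosome, start and end of each aligned fragment, with no count, normalization or replicate pooling; 1.22% to 1.59% of intervals repeat an earlier one. No input library was used here. Fragments were counted by midpoint in 1 kb windows and multiplied by the mean library total over the library's own. Regions were compared with exact permutation tests over libraries. Windows averaging 10 or more fragments per library were tested on log2 (scaled count + 1) with limma 3.58.1 (empirical Bayes with trend, Benjamini-Hochberg over all windows, main threshold 0.01), and the fit was tested on simulated data. Named windows were those with adjusted p below 0.05 and groups that do not overlap, and the densest window of each end. After their values were seen, 3 windows without fragments in 1, 2 or 5 libraries were added. The neighbouring 100 kb bins of chromosome 13 with MA lower were also named after their values were seen. Named genes were those of the listed DMR with the largest decrease and increase at each end, and genes with 3 or more there; chromosome 15 had no increase, so its smallest decrease (NDUFA10) was taken, and DYRK1A was added after values were seen. Gene identifiers were given symbols where the name table had them. The members and lists were chosen with earlier results of these data known. Alternatives covered scaling, counting, end width, filters, left-out libraries and a replicate block.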

Additional observations from a re-analysis of the deposited data

How the results depend on the processing

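The excess of the distal ends over the interior, over the centromere-side ends and over the ends of chromosomes 1 to 12 kept its direction under every alternative run (identical intervals counted once, median window, empty or very dense windows left out, ends of 1, 2 or 10 Mb, each library or both MA 3 and Young 1 left out, and, for single comparisons, chromosome 18 left out or chromosome X added), with log2 values of 1.37 to 2.05, 1.17 to 2.05 and 0.069 to 0.47. The outward gradient with the median window was 4.25 on chromosome 14, which then passed the test, and -0.10 on chromosome 17, which turned; without the empty windows it was -0.31 on chromosome 14, also turned but not called, and without windows of a mean count over 1000 it was 0.15 on chromosome 17. In the alternatives with all 6 libraries no other gradient changed its side of the threshold, and with fewer libraries the test cannot pass it. The age difference of single ends moved beyond the spread of libraries with ends of 1 Mb on chromosome 13 (-0.050), with trimmed-mean (TMM) factors on chromosome 18 (-0.014), and with scaling to total bases on chromosomes 13 (0.069) and 18 (0.063). With ends of 1 Mb it was -0.23, -0.17, -0.18, -0.041 and 0.015 on chromosomes 14 to 18, shifts within that spread. The pooled age difference was below 0 in 14 of 17 alternatives and ran from -0.11 to 0.043, being above 0 without MA 3, without Young 3 and with scaling to total bases. Member windows called at an adjusted p below 0.01 stayed at 0 except without both MA 3 and Young 1 (11), and the threshold of 0.05 gave 1, which was 4 with no minimum count, 2 without MA 2 or in 5 kb windows, 5 without MA 3, 72 without both, and 0 with TMM factors, a minimum of 30, a pseudocount of 0.5 or 500 bp windows. The minimum of 30 removed the window called in the main setting, so it was not tested again there. The settings without both MA 3 and Young 1, without chromosome 18 and with chromosome X were chosen after the data were seen.

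Replicate numbers are shared by the 2 ages. Deviations from the group means correlated at -0.53, 0.33 and -0.52 for libraries of the same number, and at -0.48 to 0.66 for different numbers. The numbers thus gave no sign of a pairing. Deviations within a group of 3 libraries are tied to each other, so these values cannot exclude one. A fit with the replicate block called 0 member windows at 0.01 and 0 at 0.05, and in this balanced design the block cannot change a difference of means (-0.028 over all ends, -0.049 relative to the interior), only its p, which was 0.75 for both by the exact block permutation and 0.75 to 1 at the single ends. With 3 libraries per age, an age difference smaller than the spread among libraries of one age could not be resolved.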
